A study of Homo sapiens with 14 samples.

Results

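The genes described here encode splicing factors, the proteins that choose and assemble splice sites on pre-mRNA. They are 45 genes picked by symbol from the 62703 genes of the count table and comprise 21 genes of the heterogeneous nuclear ribonucleoproteins (hnRNPs) with PTBP1, 13 SR and SR-like genes, and 11 genes of the SF3A, SF3B and U2AF complexes. All 45 passed the low-count filter that kept 7086 genes for testing. Their messenger RNA was measured in 3 established lines of human prostate cancer (LNCaP, 22Rv1, PC3) kept for 3 days in 1.5 µM SEL120-34A, which inhibits CDK8 and its paralog CDK19, the kinases of Mediator, or in the solvent dimethylsulfoxide (DMSO), as the treatment label of each sample gives it. LNCaP carries the androgen receptor and is sensitive to enzalutamide, 22Rv1 is resistant to that drug, and PC3 lacks the receptor. LNCaP and 22Rv1 had 3 libraries in each arm and PC3 had 1. The labels give no genetic change in any group, and a single dose and time was tested.

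In an intron, U2AF recognizes the 3′ splice site and helps to bring the U2 snRNP, which holds the SF3A and SF3B complexes, onto the branch point. SR proteins bind exonic enhancers and promote the use of nearby splice sites, whereas hnRNPs coat the transcript and often repress them, so that exon choice depends on the balance between both families.

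Libraries held 246063 to 909176 counts, and 2339 to 11717 of these fell on the 45 genes, which is 0.804 to 1.52% of all counts. Levels are given as counts scaled to 1000000 per library (CPM), corrected between libraries by trimmed mean of M-values (TMM). They are shares of the RNA of a whole culture, so a lower level in each cell and a smaller share of expressing cells cannot be told apart. The lines matched their labels: the summed level of 6 prostate markers was 2242 to 3296 CPM in LNCaP, 561 to 734 CPM in 22Rv1 and 61.4 to 83.8 CPM in PC3, whereas that of 5 PC3 markers was 3374 to 3507 CPM in PC3 and 26.2 to 102 CPM elsewhere. Of 6 markers of immune, fibroblast and endothelial cells, PTPRC, CD3E and CDH5 had no count in any library, and the summed level of all 6 was 0 to 38.0 CPM in LNCaP and 22Rv1 and 92.9 to 96.9 CPM in PC3, mostly COL1A1. Mitochondrial and proliferation genes are given beside the treatment arms. The mitochondrial share of counts was 13.9 to 17.3% in LNCaP DMSO and 16.5 to 23.3% in LNCaP SEL120-34A libraries, and 7.60 to 9.82% and 9.52 to 13.2% in the same arms of 22Rv1, which overlapped between arms in both lines. The summed level of 16 proliferation markers was 2474 to 2627 against 1595 to 2131 CPM in LNCaP and 3038 to 3365 against 2764 to 3048 CPM in 22Rv1, apart in LNCaP and overlapping in 22Rv1. In the edgeR test used below, 2 of the 16 fell in LNCaP, RRM2 and BIRC5 (0.776% of all genes did). In 22Rv1 2 others fell, MKI67 and MCM4 (1.55% of all genes did). Fitted values were below 0 for 15 of the 16 in LNCaP and 10 of the 16 in 22Rv1. The part of mitochondrial or proliferation genes in the results was not tested.

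The promoters of 4 genes that were lower in the average of both lines are shown as examples of the called genes, namely those with at most 30 of the 150 bases inside the annotated gene. The RefSeq table (GRCh38.p14) held a promoter for 41 of the 45 genes and none for HNRNPA1, SRSF2, SF3B3 and TRA2A. Each sequence is the 150 bases before the RefSeq transcription start, read 5′ to 3′ on the gene's strand, with capitals marking promoter motifs on either strand. The GC box was searched as GGGCGG. The letters of the CAAT box were taken to be CCAAT. Those of the TATA box were TATAAA.
HNRNPU (chr1:244864544-244864693, minus strand): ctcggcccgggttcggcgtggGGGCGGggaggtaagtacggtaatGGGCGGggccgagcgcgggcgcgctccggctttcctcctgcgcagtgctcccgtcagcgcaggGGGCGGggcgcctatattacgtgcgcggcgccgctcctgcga
SRSF7 (chr2:38751495-38751644, minus strand): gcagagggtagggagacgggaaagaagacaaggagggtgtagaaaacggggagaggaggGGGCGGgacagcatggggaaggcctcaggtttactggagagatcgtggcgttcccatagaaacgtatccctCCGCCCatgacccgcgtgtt
HNRNPAB (chr5:178204383-178204532, plus strand): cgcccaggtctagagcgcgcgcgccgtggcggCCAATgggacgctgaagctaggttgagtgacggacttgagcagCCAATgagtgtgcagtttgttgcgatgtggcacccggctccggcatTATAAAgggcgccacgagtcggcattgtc
SRSF6 (chr20:43457746-43457895, plus strand): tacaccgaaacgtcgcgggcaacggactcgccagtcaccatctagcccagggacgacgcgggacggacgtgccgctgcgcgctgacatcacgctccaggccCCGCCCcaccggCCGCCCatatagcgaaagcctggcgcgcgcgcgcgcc

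The promoters of HNRNPU, SRSF7 and SRSF6 held 2 or 3 GC boxes in these windows, and that of HNRNPAB held 2 CAAT boxes and a TATA box. Over the 250 bases before the start, a GC box on either strand stood in 28 of the 41 promoters (68.3%) and in 42.3% of 27305 promoters in the table. An ETS motif (CCGGAAG) stood in 12 (29.3% against 8.82%), an E-box (CACGTG) in 7 (17.1% against 6.49%) and a CAAT box in 17 (41.5% against 33%). A TATA box stood in 12.2% against 11.1% and the androgen response half-site AGAACA in 9.76% against 12.4%. Median GC content of these windows was 65.6% for the 41 genes and 58% for the whole table. These letter matches describe the windows and do not show that a factor binds them.

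To investigate the response of splicing factors to CDK8/19 inhibition in LNCaP cells, the quasi-likelihood F-test of edgeR was applied to treated against DMSO libraries. Of the 45 genes, 5 fell and none rose (11.1% called, against 2.77% of all 7086 genes, with 0.776% lower and 1.99% higher). They were the SR genes SRSF2 and SRSF7 and the hnRNP genes HNRNPA1, HNRNPA3 and HNRNPD. All tested genes are a background not matched to the 45 by level. Among the 1427 tested genes whose log2 CPM averaged 7 or higher, 87 were called in LNCaP, 53 higher and 34 lower. The median log2 fold change of the 45 genes was -0.29, against 0.00 for all tested genes, and 36 of the 45 had a fitted value below 0 (80% against 49.5% of all genes). Libraries of both arms did not overlap for 17 of the 45 genes, 16 of them lower (35.6% against 10.7%) and 1 higher (2.22% against 8.76%), against 19.4% of all genes in either direction. The call of SRSF2 alone remained when DMSO replicate 3, SEL120-34A replicate 1 or SEL120-34A replicate 2 was left out, and 8 genes were called without SEL120-34A replicate 3, whose hnRNP and SR levels lay closest to the controls. The count was 2 with DESeq2, 2 at equal depth and 0 with limma-trend, settings for which the share of all genes called is not given here. With library totals as the only scaling, 6 of the 45 genes were called, all lower, while the split over all genes moved from 141 higher and 55 lower to 99 and 90.

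SRSF2 (chromosome 17, 76734115 to 76737333), which binds exonic enhancers and stays in nuclear speckles, had levels of 472, 469 and 506 CPM in the LNCaP DMSO libraries and 269, 277 and 340 CPM after SEL120-34A. The ranges lay well apart, and the fitted fold was 0.631 (log2 -0.67 ± 0.14 SE, adjusted p 0.00443), a call lost with limma-trend alone (adjusted p 0.0632). SRSF7 (chromosome 2, 38743599 to 38751494), which also acts in mRNA export, went from 266, 304 and 249 CPM to 117, 163 and 226 CPM (-0.60 ± 0.17, adjusted p 0.0414). The treated SRSF7 libraries were all below the controls but spread over a wide range, and the call was lost in 9 of 24 alternatives at the same threshold.

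Among the hnRNP genes, HNRNPA1 (chromosome 12, 54280193 to 54287088) encodes an abundant repressor of splice sites and was at 940, 974 and 1145 CPM in LNCaP DMSO and at 558, 632 and 788 CPM in treated libraries. The arms did not overlap, and the log2 fold change was -0.59 ± 0.14 SE (adjusted p 0.0117). HNRNPA1 has close copies, of which HNRNPA1L3 held 21.7% and HNRNPA1P10 11.2% as many counts over all libraries. With the counts of all its copies added, an alternative chosen after seeing the data, the change was -0.62 (adjusted p 0.00762). The call was lost in 4 of 25 alternatives, with limma-trend (adjusted p 0.169) and without DMSO replicate 3, treated replicate 1 or treated replicate 2.

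HNRNPD (chromosome 4, 82352498 to 82374503), known as AUF1 and a regulator of mRNAs with AU-rich elements, went from 375, 395 and 432 CPM to 257, 260 and 291 CPM (log2 -0.53 ± 0.14 SE, adjusted p 0.0256). Treated libraries of this gene were tightly grouped below the controls. HNRNPA3 (chromosome 2, 177212694 to 177223959), a relative of HNRNPA1, went from 209, 212 and 250 CPM to 117, 138 and 161 CPM (-0.64 ± 0.17, adjusted p 0.0295). Neither HNRNPD nor HNRNPA3 overlapped between arms, and each call was lost in 7 of 24 alternatives.

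**Figure D1:**
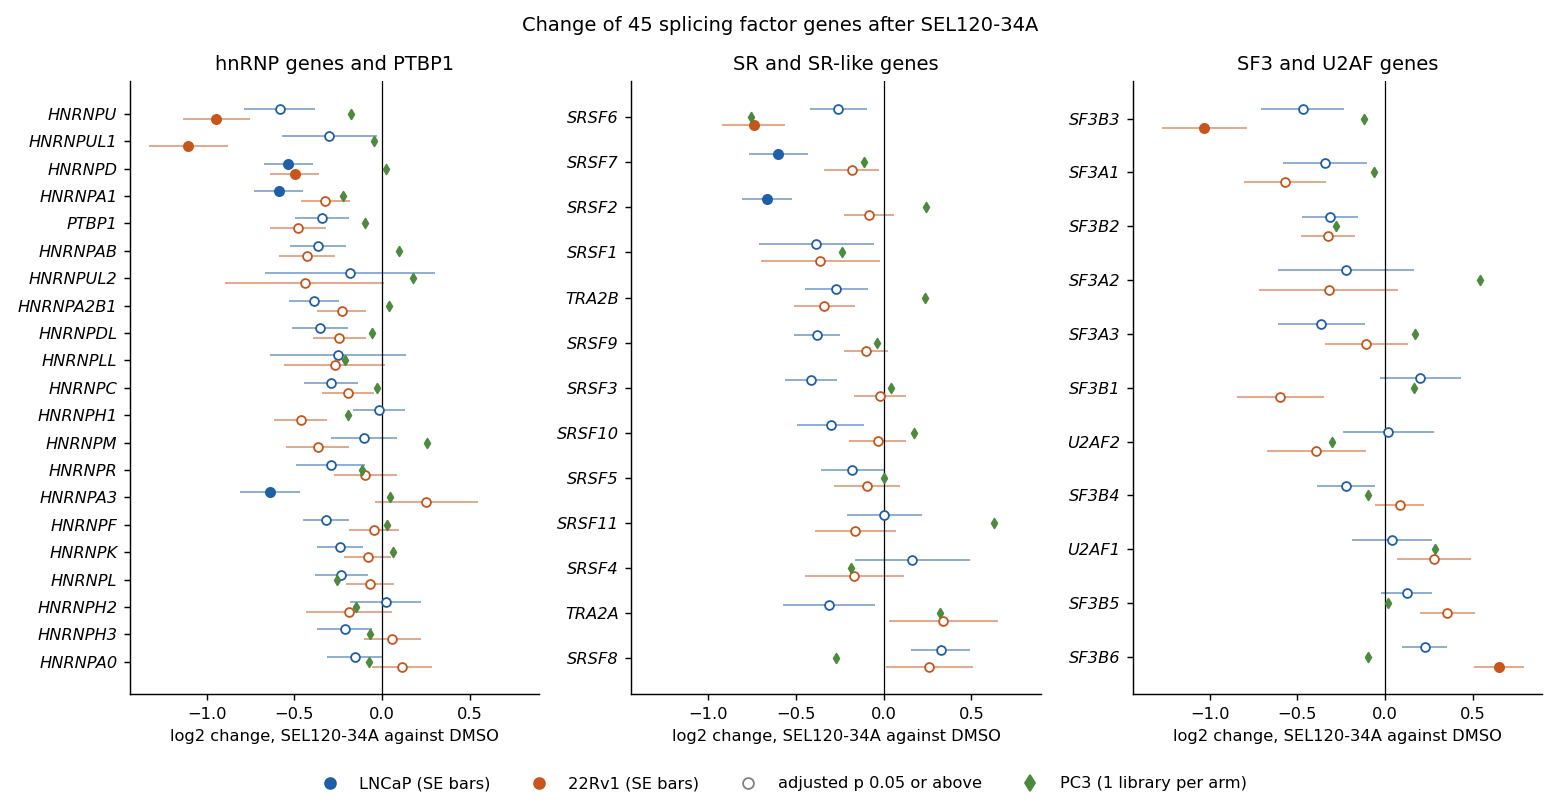
Fitted log2 change after SEL120-34A for each of the 45 genes, by family and ordered by the average of LNCaP and 22Rv1. Circles with SE bars are LNCaP (blue) and 22Rv1 (orange), filled where the adjusted p was under 0.05, and green diamonds are the ratios of the PC3 libraries, 1 per arm. In each of LNCaP and 22Rv1, 36 of 45 circles lie below 0.

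In 22Rv1, 6 of the 45 genes changed (13.3% called, against 5.7% of all genes), with 5 lower (11.1% against 1.55%) and 1 higher (2.22% against 4.15%). HNRNPUL1, HNRNPU, HNRNPD, SRSF6 and SF3B3 fell and SF3B6 rose. Among the 1427 tested genes whose log2 CPM averaged 7 or higher, 216 were called in 22Rv1, 168 higher and 48 lower. Against these better expressed genes, the share called among the 45 was no larger, whereas the share that fell still was. The median log2 fold change of the 45 genes was -0.19, against 0.00 for all genes, and again 36 had a fitted value below 0, against 49.6% of all genes. Arms did not overlap for 17 genes, 15 of them lower (33.3% against 10.5%) and 2 higher (4.44% against 12.4%), against 23% of all genes in either direction. With library totals alone, all genes had a median of -0.14, and 9 of the 45 genes were then called, 8 lower and 1 higher, while the split over all genes went from 294 higher and 110 lower to 144 and 231. All treated 22Rv1 libraries were shallower than their controls, at 246063 to 368778 counts against 476455 to 777207, and with every library thinned to the smallest total 7 genes were called, against 4 with limma-trend.

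HNRNPU (chromosome 1, 244840638 to 244864560), also called SAF-A, binds RNA and chromatin, and was at 399, 597 and 495 CPM in 22Rv1 DMSO and at 298, 120 and 322 CPM after SEL120-34A. No treated library reached the controls, and replicate 2, the shallowest library of the series, was far below the other treated libraries. The log2 fold change was -0.94 ± 0.19 SE (adjusted p 0.00106), and its call was lost with limma-trend (adjusted p 0.102). Its relative HNRNPUL1 (chromosome 19, 41262496 to 41307787), which has been linked to the DNA damage response, went from 126, 167 and 144 CPM to 88.2, 38.6 and 65.6 CPM. The arms were clearly apart, with a log2 fold change of -1.10 ± 0.23 (adjusted p 0.00133) that kept its call in all 23 alternatives run for it.

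HNRNPD was at 406, 376 and 454 CPM in 22Rv1 DMSO and at 328, 249 and 285 CPM in treated libraries, without overlap (log2 -0.50 ± 0.14 SE, adjusted p 0.0273). It was the 1 gene of the 45 called in both lines, and its call in 22Rv1 was lost when DMSO replicate 3, treated replicate 2 or treated replicate 3 was left out. SRSF6 (chromosome 20, 43457893 to 43466046), an SR protein with a role in exon inclusion, went from 285, 221 and 265 CPM to 146, 98.7 and 200 CPM (-0.74 ± 0.18, adjusted p 0.00783). Its highest treated library lay just below its lowest control, and the call was lost without SEL120-34A replicate 1, without SEL120-34A replicate 2 and with limma-trend.

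Transcripts of SF3B3 and SF3B6 moved in opposite directions in 22Rv1, and the other SF3B genes were not called. SF3B3 (chromosome 16, 70523791 to 70577670), a large scaffold subunit, was at 84.4, 89.8 and 93.0 CPM in DMSO and at 41.3, 38.6 and 48.5 CPM in treated libraries, close to 0.489-fold (log2 -1.03 ± 0.24 SE, adjusted p 0.00578). SF3B6 (chromosome 2, 24067586 to 24076373), a small subunit at the branch point, rose from 295, 275 and 239 CPM to 449, 451 and 354 CPM (0.65 ± 0.14, adjusted p 0.00256). Neither gene overlapped between arms. SF3B6 kept its direction and its call in all 24 alternatives, whereas the call of SF3B3 was lost at equal depth and without SEL120-34A replicate 1.

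**Figure D2:**
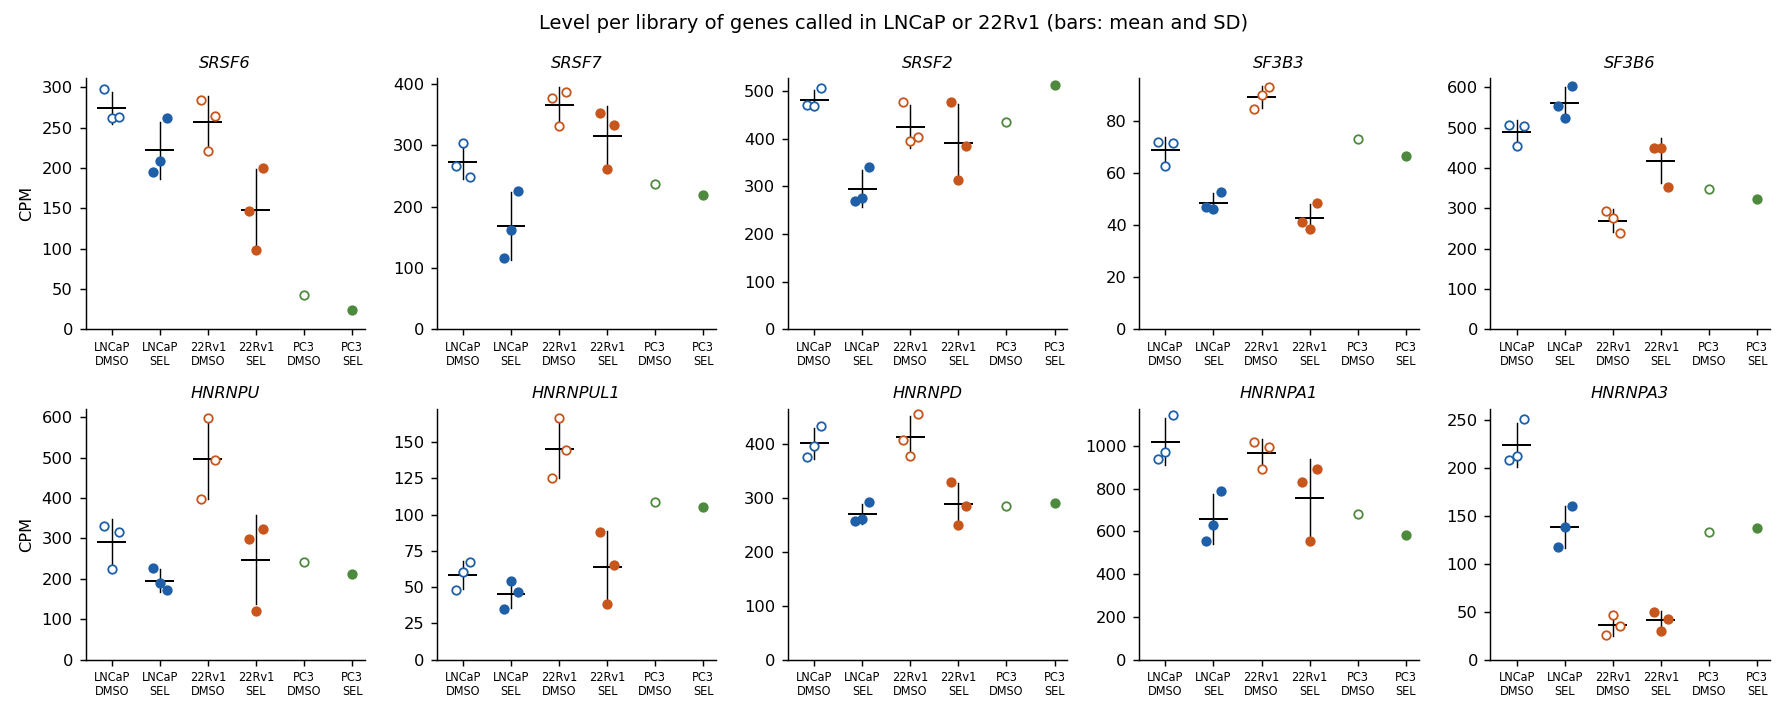
Level in CPM of the 10 genes called in LNCaP or 22Rv1, 1 point per library, with the mean and SD where an arm had 3 libraries. Open points are DMSO and filled points SEL120-34A (SEL). SF3B6 is the only gene of the 10 with higher treated levels in both LNCaP and 22Rv1, and SRSF6 is lowest in PC3.

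By family, fitted values below 0 were seen for 20 of 21 hnRNP genes in LNCaP and 18 of 21 in 22Rv1, for 10 and 11 of 13 SR genes, and for 6 and 7 of 11 SF3 and U2AF genes. Median log2 fold changes were -0.29 and -0.24 for the hnRNP genes, -0.30 and -0.10 for the SR genes and -0.22 and -0.32 for the SF3 and U2AF genes. Summed hnRNP levels were 7519, 7799 and 8434 CPM in LNCaP DMSO and 5306, 5806 and 7024 CPM in treated libraries. In 22Rv1 they were 8870, 8859 and 8863 CPM against 7480, 5927 and 8252 CPM, again without overlap. The summed SR level was 2865 to 3157 against 2000 to 2716 CPM in LNCaP and 3113 to 3406 against 2618 to 3092 CPM in 22Rv1. The summed SF3 and U2AF level overlapped between arms in both lines. In LNCaP the treated libraries had the same order, lowest in replicate 1 and highest in replicate 3, for the hnRNP sum, the SR sum and the proliferation markers, and the reverse order for the mitochondrial share. Their depth had the same order as the sums, at 291056, 406886 and 519928 counts. In 22Rv1, treated replicate 2 was lowest of the treated libraries in these sums and in depth, and highest in the mitochondrial share. What underlies these orders was not tested.

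**Figure D3:**
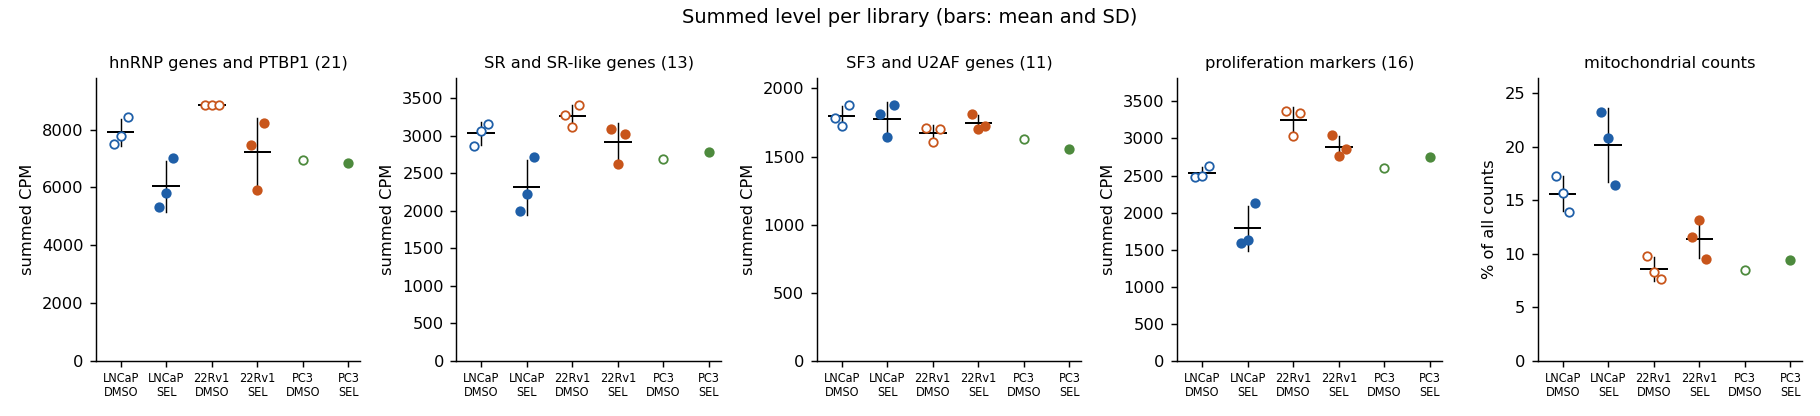
Summed CPM of the hnRNP genes with PTBP1 (21), the SR and SR-like genes (13), the SF3 and U2AF genes (11) and the proliferation markers (16), and the mitochondrial share of counts in percent, 1 point per library. Bars are mean and SD. The hnRNP and SR sums of treated libraries lie below all controls of the same line in LNCaP and 22Rv1, and the SF3 and U2AF sums overlap.

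The average of the LNCaP and 22Rv1 effects was tested next, which a large effect in 1 line can carry alone. By edgeR, 11 of the 45 genes were called (24.4% against 6.01% of all genes), 10 lower (22.2% against 2.13%) and 1 higher (2.22% against 3.88%). Among the 1427 tested genes whose log2 CPM averaged 7 or higher, 245 were called in the average, 159 higher and 86 lower. The shares called and lower among the 45 genes exceeded these by less than they exceeded those of all genes. The 10 that fell were HNRNPU (-0.76 ± 0.14 SE on the log2 scale, adjusted p 0.000304), SF3B3 (-0.75), HNRNPUL1 (-0.70), HNRNPD (-0.52), SRSF6 (-0.50), HNRNPA1 (-0.46), PTBP1 (-0.41), HNRNPAB (-0.40), SRSF7 (-0.39) and SRSF2 (-0.37). SF3B6 rose by 0.44 ± 0.10 (adjusted p 0.00264). The count was 4 with limma-trend, 19 with library totals as the only scaling, 8 without LNCaP SEL120-34A replicate 1 or 22Rv1 SEL120-34A replicate 2, and 16 without LNCaP SEL120-34A replicate 3. Only HNRNPD and SF3B6 kept this call in all 23 alternatives.

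PTBP1 and HNRNPAB were called in the average but in neither line alone. PTBP1 (chromosome 19, 797075 to 812327), which binds polypyrimidine tracts and represses exons, was at 247, 251 and 262 CPM in LNCaP DMSO against 152, 206 and 218 CPM, and at 240, 262 and 252 CPM in 22Rv1 DMSO against 198, 185 and 154 CPM. Neither line showed overlap, and the average had an adjusted p of 0.0173. HNRNPAB (chromosome 5, 178204533 to 178211163), a further hnRNP of the A/B type, was at 318, 285 and 282 CPM against 179, 228 and 256 CPM in LNCaP and at 269, 393 and 301 CPM against 248, 197 and 254 CPM in 22Rv1 (adjusted p 0.0243). Its controls and treated libraries came close in 22Rv1 but did not overlap. The average call of PTBP1 was lost without LNCaP treated replicate 1 or 22Rv1 treated replicate 3, and that of HNRNPAB without LNCaP DMSO or treated replicate 1, or 22Rv1 DMSO or treated replicate 2, and with limma-trend. SRSF2 lost its average call without 22Rv1 treated replicate 2 and with limma-trend, and SRSF7 with 5 of 12 libraries left out in turn and with limma-trend.

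Fitted values were below 0 in both lines for 31 of the 45 genes (68.9% against 27.9% of all genes), above 0 in both for 4 and of opposite sign for 10. Non-overlapping and lower in both lines were HNRNPA1, HNRNPAB, HNRNPD, HNRNPDL, PTBP1, SF3B2 and SF3B3 (15.6% of the 45 genes against 1.91% of all genes). Across the 45 genes the fitted values of both lines correlated with r = 0.32, a description only, as genes of 1 library share its depth and composition. The SE of many genes was close to the size of their change, so this r does not show how far their order was shared.

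**Figure D4:**
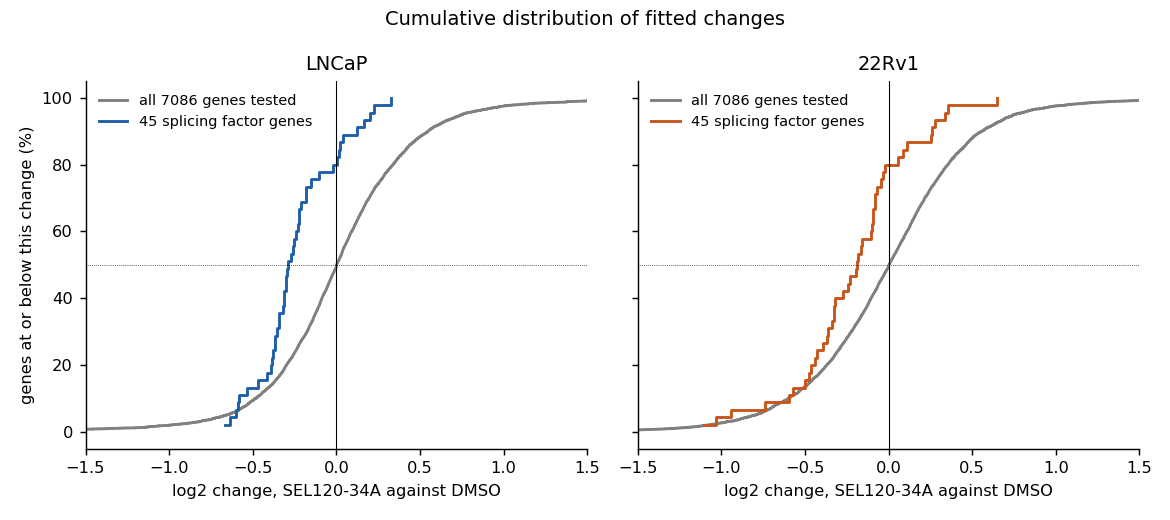
Cumulative share of genes, in percent, at or below a given log2 change after SEL120-34A, in LNCaP (left) and 22Rv1 (right), for the 45 genes (coloured) and all 7086 tested genes (grey). The coloured curve crosses 50% at -0.29 in LNCaP and -0.19 in 22Rv1, against 0.00 for all genes.

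The difference between the LNCaP and 22Rv1 effects was tested directly. None of the 45 genes passed by edgeR, DESeq2 or limma-trend (by edgeR 0.734% of all genes did, 0.268% with a higher and 0.466% with a lower effect in LNCaP). By edgeR, 6 of the 45 had an unadjusted p under 0.05, as had 811 of all 7086 genes. The smallest adjusted p was 0.223, for SRSF2, which had -0.67 on the log2 scale in LNCaP and -0.08 in 22Rv1. In 22Rv1 its levels were 477, 395 and 403 CPM in DMSO and 477, 313 and 385 CPM in treated libraries, which overlapped. The gap for HNRNPA3 was -0.89 ± 0.35 SE (adjusted p 0.299), that for HNRNPUL1 0.80 ± 0.36 (0.389) and that for SF3B1 0.80 ± 0.34 (0.354). Calls in 1 line alone are therefore not shown to differ between lines. DESeq2 gave an adjusted p for 31 of the 45 genes in this test.

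Several of the best known splicing factors were not called in either line or in the average. HNRNPA2B1, which binds and sorts RNA, was at 1562, 1838 and 1661 CPM in LNCaP DMSO and 1045, 1157 and 1554 CPM in treated libraries (log2 -0.39 ± 0.14 SE, adjusted p 0.163). Its arms did not overlap in LNCaP but did in 22Rv1, at 2593, 2415 and 2532 CPM against 1943, 1644 and 2767 CPM. The average, at -0.31, had an adjusted p of 0.0552.

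HNRNPC, which binds uridine tracts, had a fitted log2 value of -0.29 (LNCaP) and -0.19 (22Rv1), and HNRNPK, which prefers cytosine-rich RNA, of -0.24 and -0.08. Adjusted p-values of these genes in either line were 0.42 or higher. SRSF3, the smallest SR protein, was at 378, 484 and 475 CPM against 265, 290 and 406 CPM in LNCaP, which overlapped (-0.41 ± 0.15, adjusted p 0.155), and had a change of -0.02 in 22Rv1. SRSF1, the founding SR protein, had -0.38 ± 0.33 and -0.36 ± 0.34. Its treated libraries scattered widely, from 19.0 to 58.5 CPM in LNCaP and from 8.58 to 59.9 CPM in 22Rv1.

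SF3B1, the branch point subunit that is recurrently mutated in leukemia, was at 80.3, 49.7 and 76.9 CPM against 62.4, 89.5 and 84.5 CPM in LNCaP (log2 0.20 ± 0.23 SE). In 22Rv1 it was at 78.5, 107 and 78.7 CPM against 46.9, 55.8 and 68.5 CPM (-0.60 ± 0.25, adjusted p 0.16). The arms overlapped in LNCaP and not in 22Rv1. U2AF1, which reads the AG at the intron end, had 0.04 ± 0.23 and 0.28 ± 0.21, and U2AF2, which binds the polypyrimidine tract, 0.02 ± 0.26 and -0.39 ± 0.28. None of the 11 SF3 and U2AF genes was called in LNCaP by edgeR, DESeq2 or limma-trend, and none had an unadjusted p under 0.05 there by edgeR.

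Genes without a call reached changes as large as those of some called genes. In LNCaP the 40 genes without a call had fitted values from -0.58 for HNRNPU to 0.32 for SRSF8, and 8 of them had an unadjusted p under 0.05. In 22Rv1 the 39 without a call lay between -0.60 for SF3B1 and 0.36 for SF3B5, and 9 had an unadjusted p under 0.05. Over all 7086 genes, called ones included, 956 had such a p in LNCaP and 1351 in 22Rv1 by edgeR. SRSF8, a close relative of SRSF2, U2AF1, SF3B5 and SF3B6 were the 4 genes with fitted values above 0 in both lines. U2AF1 in LNCaP, however, changed sign in 7 of 24 alternatives.

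In PC3, which has no androgen receptor, no replicate check was possible and no test was made. Among the 44 genes with at least 50 counts in both libraries together, the median log2 ratio of treated to control was -0.05, against 0.03 for 4865 genes at the same limit, and 25 were below 0 (56.8% against 46.3%). Past 1.5-fold were 2 of the 44 (4.55% against 11.5% of all genes), 1 lower (2.27% against 5.63%) and 1 higher (2.27% against 5.84%). SRSF6 was at 42.5 CPM in DMSO (39 counts, exact Poisson 95% interval 30.2 to 58.1) and 24.6 CPM after SEL120-34A (14 counts, 13.4 to 41.2). SRSF11, an SR-like protein, was at 53.4 CPM (39.5 to 70.5) and 82.4 CPM (60.6 to 110). Both pairs of intervals overlapped, and these intervals cover counting error only. HNRNPD, which fell in LNCaP and 22Rv1, was at 285 and 289 CPM in PC3.

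To determine how far the lines differed before treatment, LNCaP and 22Rv1 DMSO libraries were compared. Of the 45 genes, 23 differed (51.1% called, against 49% of all genes). Of these, 9 were higher in LNCaP (20% against 24%) and 14 lower (31.1% against 25%). With library totals as the only scaling the split was 6 and 20. That scaling shifts all genes of a library together, and the split over all genes is not given here. A difference of at least 1 on the log2 scale was rarer than among all genes, at 4 of 45 (8.89% against 26%). These 4 were HNRNPA3 and SRSF8, higher in LNCaP, and HNRNPUL1 and HNRNPLL, higher in 22Rv1. HNRNPLL, which has too few counts for the rule by which genes are named, is given because it is 1 of the 4 and was chosen after its values were seen.

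HNRNPA3 had the largest difference, with 209, 212 and 250 CPM in LNCaP DMSO and 25.5, 46.8 and 34.6 CPM in 22Rv1 DMSO (log2 2.65 ± 0.20 SE, adjusted p 1.15e-14). Its lowest LNCaP library was several times above its highest 22Rv1 library, and PC3 was in between at 133 and 137 CPM. In the count table, 3 of its named copies showed the same order, with 32.5 against 1.96 CPM for HNRNPA3P6, 23.3 against 2.56 CPM for HNRNPA3P5 and 27.1 against 5.03 CPM for HNRNPA3P3. With the copies added to HNRNPA3 the difference was 2.76 ± 0.18.

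SRSF8 was at 156, 126 and 197 CPM in LNCaP DMSO against 64.8, 50.5 and 51.3 CPM in 22Rv1 DMSO (log2 1.57 ± 0.19 SE, adjusted p 4.80e-09). HNRNPF, which binds G-rich tracts, was at 630, 799 and 829 CPM against 381, 386 and 413 CPM (0.93 ± 0.13, adjusted p 1.41e-07). In both genes the lowest LNCaP library was above all 22Rv1 libraries. TRA2A, an SR-like activator, was higher in LNCaP by 0.91, SF3B6 by 0.88 and SF3B5, another small SF3B subunit, by 0.62.

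In the opposite direction, HNRNPUL1 was at 47.9, 60.2 and 67.1 CPM in LNCaP DMSO against 126, 167 and 144 CPM in 22Rv1 DMSO (log2 -1.32 ± 0.20 SE, adjusted p 9.72e-07). HNRNPL, which binds CA repeats, was at 244, 264 and 239 CPM against 426, 414 and 373 CPM (-0.70 ± 0.13, adjusted p 4.00e-05). Neither gene overlapped between lines. HNRNPLL (-1.18), SRSF4 (-0.86), SF3B4 (-0.86), HNRNPU (-0.75) and SRSF10 (-0.63) were also lower in LNCaP. SRSF4 lost this call at equal depth (adjusted p 0.191) and with limma-trend, and HNRNPU with limma-trend (adjusted p 0.0818). Treated 22Rv1 libraries had 38.6 to 88.2 CPM of HNRNPUL1, a range that held all of its LNCaP controls.

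**Figure D5:**
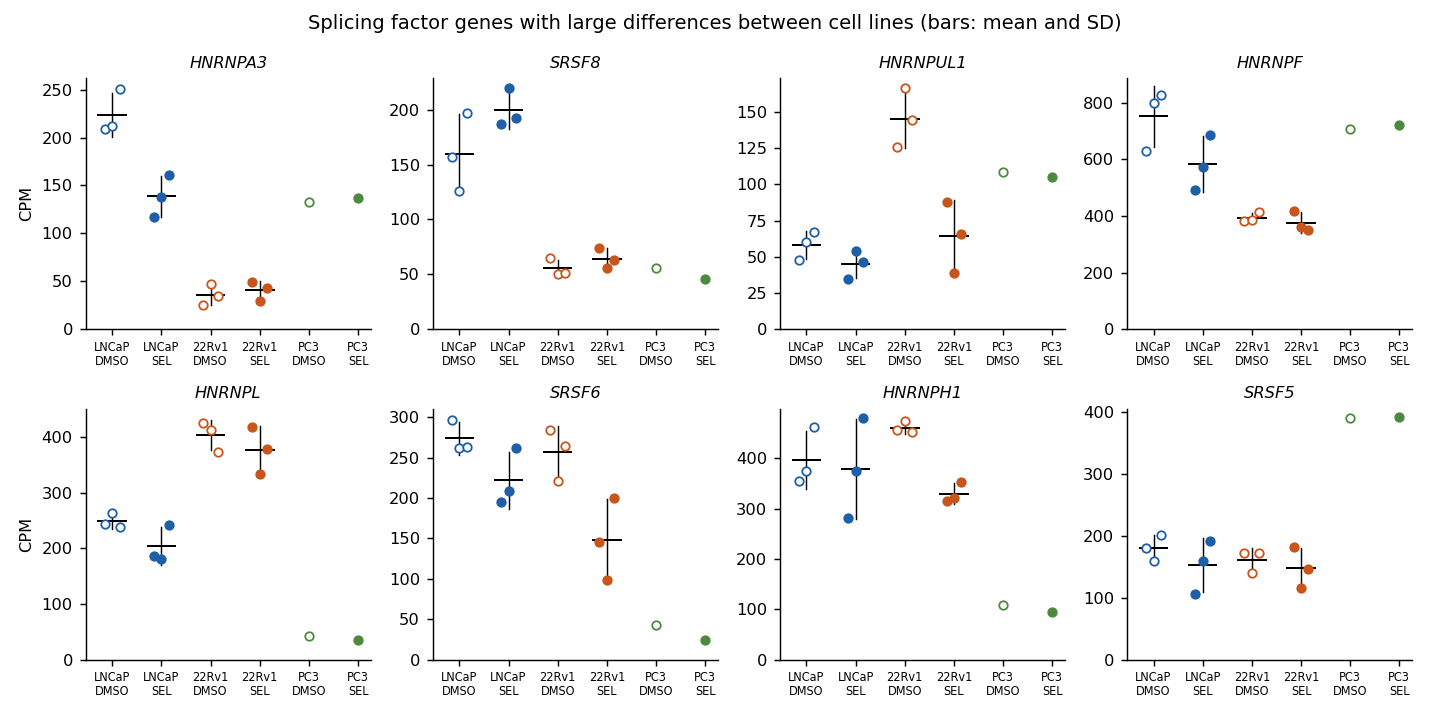
Level in CPM of 8 genes with large differences between cell lines, 1 point per library, open for DMSO and filled for SEL120-34A (SEL), with mean and SD where an arm had 3 libraries. HNRNPA3, SRSF8 and HNRNPF are higher in LNCaP than in 22Rv1, HNRNPUL1 and HNRNPL lower, and PC3 has the lowest HNRNPL, SRSF6 and HNRNPH1 and the highest SRSF5.

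The PC3 libraries stood apart for 7 genes, of which 4 were below all 12 LNCaP and 22Rv1 libraries in both PC3 libraries (8.89% against 11.3% of 9638 genes) and 3 above (6.67% against 19%). By over 1 on the log2 scale, 3 genes were lower than in both other lines (6.67% against 5.35%), HNRNPL, SRSF6 and HNRNPH1, and 1 was higher, SRSF5 (2.22% against 12.3%). HNRNPL was at 42.5 and 35.1 CPM in PC3, and its lowest value elsewhere was 182 CPM. SRSF6 was at 42.5 and 24.6 CPM, against at least 98.7 CPM elsewhere, and HNRNPH1, which binds G-rich tracts as HNRNPF does, at 109 and 94.7 CPM against at least 281 CPM. SF3A1, a subunit of the SF3A complex, was also lower. SRSF5, an SR protein, was at 391 and 391 CPM against at most 201 CPM, and HNRNPK and SF3B2 were higher by smaller margins. With 1 library per arm these are values of 2 PC3 libraries, without a test, and the genes were named after their values were seen.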

How the data were processed

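RNA of 14 samples was sequenced from transcript 3′ ends by BRB-seq. The submitters' processing notes name STARsolo and GRCh38.p13, and the authors deposited raw counts per gene for the whole annotation and log2 CPM for 9638 genes. Whether molecular identifiers were collapsed and strand was used is not given in the sources used here. The deposited log2 values were matched to within 5e-14 by TMM factors over all libraries with a prior count of 2, and served for 1 alternative.

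Counts of the 12 LNCaP and 22Rv1 libraries were fitted with edgeR 4.0.16 (R 4.3.3) in 1 model with a mean per group, TMM and the low-count filter, and tested with the quasi-likelihood F-test (8 residual degrees of freedom, common biological variation 11.1%). P-values were adjusted by Benjamini-Hochberg over 7086 genes, threshold 0.05, and with limma-trend over the 9638 genes of the deposited log2 values. They measure the spread between libraries. The labels number the replicates and do not say whether they came from separate cultures. Replicates differed by more than counting error, and none was a duplicate. PC3 ratios have 0.5 counts added. Symbols and identifiers are those of the count table. Gene coordinates are from GENCODE release 44 (GRCh38), where all 45 genes are protein-coding and 43 have the same identifier version. Promoters shown are those called in the average effect with at most 30 of the 150 bases inside the GENCODE gene.

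Genes named are those called in each comparison, or the 12 with the largest change and a mean of at least 20 counts, a panel of 12 well known factors, and PC3 genes past 1.5-fold. The members and lists were chosen with earlier results of these data known. Alternatives were other scalings and filters, each line alone, PC3 added, equal depth (246063 counts), DESeq2 1.42.0, limma-trend (limma 3.58.1) on the deposited log2 values, a threshold of 0.01, a replicate block, each library left out, and, added after seeing the data, mitochondrial genes removed and copies added. The fits were tested on simulated data, with changes placed in genes picked at random from those tested. A log2 change of 0.6 was recovered in 10.6% of changed genes in LNCaP and 17.7% in 22Rv1. A change of 1.5 was recovered in 77.3% and 78.5%, and 3.41% and 4.26% of the calls were false. Of the 7086 tested genes, 1427 had a log2 CPM averaging 7 or higher, whereas the median log2 CPM of the 45 genes was 6.97 to 7.77 per library. The genes picked at random were therefore mostly at lower levels than a typical gene of the 45. These rates are not those of the 45 genes, for which recovery was not simulated. A gene without a call is not shown to be unchanged. The result of 1 gene of the other splicing lists is not reported here.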

Additional observations from a re-analysis of the deposited data

How the results depend on the processing

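The depth sets the smallest level that can be read, since 3 counts stand for 12.9 CPM in the shallowest library and 3.27 CPM in the deepest. In LNCaP the 5 calls became 2 at equal depth, 2 with the DESeq2 Wald test, 0 with limma-trend and 1 at a threshold of 0.01. Leaving out a library gave 1 to 8 calls, with 1 without DMSO replicate 3, treated replicate 1 or treated replicate 2, and 8 without treated replicate 3. The 6 calls in 22Rv1 ranged from 4 to 8 with a library left out and were 4 with limma-trend. The 11 calls in the average became 19 with library totals, 4 with limma-trend and 7 at a threshold of 0.01, and 8 to 16 with a library left out. With DESeq2 the count was 6 in 22Rv1 and 11 in the average, with an adjusted p for 42 and 41 of the 45 genes. Shares of all genes called by DESeq2, by limma-trend, at equal depth or with a library left out are not given here. The count for untreated lines was 16 to 26 over all alternatives, and that for the difference between lines 0 in all of them. The median of the 45 genes was -0.40 to -0.23 in LNCaP and -0.26 to -0.12 in 22Rv1 with a library left out, and -0.33 in 22Rv1 with library totals, where all genes had a median of -0.14. The causes of these shifts were not tested. With mitochondrial genes removed, counts were 5 in LNCaP, 7 in 22Rv1, 12 in the average and 23 between untreated lines.

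Replicate numbers were not used to pair samples in the main fit, and whether they pair them was not decided. Deviations of same-numbered DMSO and treated libraries correlated across 2636 genes with r of 0.21, -0.04 and 0.26 in LNCaP and 0.00, -0.05 and 0.09 in 22Rv1. Differently numbered libraries had r of -0.32 to 0.12 in LNCaP and -0.14 to 0.12 in 22Rv1. Replicates 1 and 3 of LNCaP thus had a higher r than any differently numbered pair of that line. A replicate block gave 5 calls in LNCaP, 7 in 22Rv1, 12 in the average, 0 for the difference and 23 between untreated lines, and a block within each line gave 6, 7, 12 and 0.

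Small changes of genes without a call turned sign. In LNCaP, U2AF1 was at -0.0497 with library totals, -0.0382 with no low-count filter, -0.148 when thinned to equal depth and -0.0655 under limma-trend, and from -0.248 to 0.313 with a library left out, below 0 without DMSO replicate 1 and without treated replicate 1 or 3. U2AF2 was at -0.0705 with library totals, -0.0578 with no filter and -0.0126 with PC3 added, and from -0.248 to 0.264 with a library left out. SRSF1 was at 0.0087 at equal depth. In 22Rv1, with a library left out, HNRNPK ranged from -0.159 to 0.0288, SRSF2 from -0.247 to 0.0451 and SRSF3 from -0.146 to 0.0496, all above 0 without treated replicate 2.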

Other observations

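Other parts of the splicing machinery were described with the same fits. In LNCaP, 1 of 38 further splicing regulators fell (0.776% of all genes did), RBMX (log2 -0.63, adjusted p 0.0229), an hnRNP encoded on the X chromosome. In 22Rv1, ELAVL1 (-0.82, adjusted p 0.00298), which stabilizes mRNAs with AU-rich elements, and SFPQ (-0.76, adjusted p 0.00897), a paraspeckle protein, fell. The median of these regulators was -0.18 in LNCaP and -0.32 in 22Rv1, and 34 of 38 had a fitted value below 0 in 22Rv1. In the average of both lines SFPQ (-0.65, adjusted p 0.0016), ELAVL1 (-0.63, adjusted p 0.000803) and RBMX (-0.52, adjusted p 0.00306) were lower by edgeR. Among all genes 2.13% were lower in the average and 1.55% in 22Rv1. DESeq2 also called these genes in the average, whereas limma-trend called ELAVL1 and RBMX but not SFPQ (adjusted p 0.07).

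The Sm and LSm proteins and other core proteins of the snRNPs were described as well. Their median log2 fold change was -0.25 in LNCaP and 0.08 in 22Rv1 over 21 genes, and 2 of them rose in 22Rv1 (4.15% of all genes did), LSM2 (0.64, adjusted p 0.0113) and SNRPD2 (0.46, adjusted p 0.0273). None of the 21 differed between the lines by the edgeR test of the difference, although 8 had an unadjusted p under 0.05 (811 of all 7086 genes did). None was called by edgeR in LNCaP, with 5 at an unadjusted p under 0.05 (956 of all 7086 genes). DESeq2 and limma-trend called 0 of them in either comparison, with an adjusted p for 13 of the 21 by DESeq2 in the difference. Among 31 tri-snRNP and catalytic genes, 1 fell in 22Rv1 (1.55% of all genes did), PRPF8 (-0.57, adjusted p 0.0364), the core protein of the spliceosome. In LNCaP, 0 were called by edgeR or DESeq2, with 0 at an unadjusted p under 0.05 by edgeR. Limma-trend, which tested 34 genes of this list, called 0 in LNCaP. Of 10 kinases and other enzymes that modify or import SR proteins, CLK1, which phosphorylates them, rose in the average (0.93 ± 0.26 SE, adjusted p 0.0231), and PRMT1, an arginine methyltransferase, rose in 22Rv1 (0.57, adjusted p 0.0416). Limma-trend called neither of these (adjusted p 0.113 for CLK1 and 0.15 for PRMT1), and DESeq2 gave an adjusted p of 0.0641 for PRMT1 and none for CLK1. In LNCaP, RBMX had an adjusted p of 0.0664 by DESeq2 and 0.13 by limma-trend. In 22Rv1, DESeq2 called LSM2, SNRPD2, SFPQ and ELAVL1, and limma-trend called PRPF8.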
